A study of Arabidopsis thaliana with 12 samples.

Results

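*SAG13* (AT2G29350) and the tropinone-reductase-like genes around it on chromosome 2 were followed in WT leaves and in those of the *kaku4-2* mutant. The group holds 10 genes, AT2G29150, AT2G29260, AT2G29290, AT2G29310, AT2G29320, *TRI* (AT2G29330), AT2G29340, *SAG13*, AT2G29360 and AT2G29370, of 23069 genes in the expression table. They were taken by locus, as genes of a single family that lie close together, with earlier results of these data known. AT2G29170 and AT2G29300, of the same family and within the same stretch, are not among the 10. Over the 6 libraries *SAG13* was the only abundant member whose mutant values all lay above the WT, and AT2G29290 joined it after quantile normalization or without *kaku4-2* replicate 3. The means of *SAG13* were 151 ± 8.03 FPKM for the WT and 244 ± 35.3 FPKM for *kaku4-2* (SD, n = 3 each). It passed the study's cutoff for upregulation, taken with the P-values of limma, but not an adjusted p of 0.05 by limma with Benjamini-Hochberg adjustment. AT2G29340, the most abundant member in the WT, was lower in every *kaku4-2* library than in any WT library as deposited, but not once the libraries were rescaled, and it passed neither rule.

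RNA-seq compared 3 libraries of *Arabidopsis thaliana* Col-0 (WT) with 3 libraries of the *kaku4-2* mutant, each from rosette leaves of plants 30 days old. The mutant is a homozygous T-DNA insertion line in the same background in which *KAKU4*, the gene of a component of the plant nuclear lamina, is knocked down. It is a single line, so the insertion and anything else particular to that line cannot be told apart. The libraries are separate biological samples, and the values are FPKM, the fragments of a gene scaled by its transcript length and by the sequencing depth of the sample.

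The proteins of these genes belong to the short-chain dehydrogenases/reductases, a large family of NAD(P)(H)-dependent enzymes in which a tyrosine and a lysine of the active site carry the proton transfer. In the nightshade family, tropinone reductases of this group reduce tropinone in the synthesis of tropane alkaloids. The *Arabidopsis* genes are named after those enzymes by sequence likeness, and most have no assigned substrate. *SAG13* has long been used as a marker of leaf senescence, and its transcript also rises in leaves under oxidative stress and attack by pathogens.

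The members span 71904 bases of chromosome 2, from 12535715 to 12607618 in the TAIR10.1 annotation of RefSeq. All but AT2G29150 lie on the plus strand. *SAG13* runs from 12600914 to 12602556 with 5 coding exons, directly after AT2G29340 (12597018 to 12599299) and before AT2G29360 (12603767 to 12605299). By their proteins, 9 of the 10 members fell into a pair of groups. *SAG13*, AT2G29150, AT2G29290, AT2G29360 and AT2G29370 were 77.2% to 82.8% identical to each other. AT2G29310, AT2G29320, *TRI* and AT2G29340, called the *TRI* group here, were 77.7% to 84.7% identical. Between these groups the identity was 60.0% to 65.8%. AT2G29260 stood apart at 54.0% to 60.3% from the other members.

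The 30 coding bases around the positions of the active-site tyrosine and lysine are shown so that members of both groups can be set side by side. The codons in the positions of the tyrosine and the lysine are in capitals. Each stretch spans an exon junction, with ends at chr2:12601726-12601833 for *SAG13*, chr2:12597788-12597914 for AT2G29340 and chr2:12583368-12583519 for AT2G29260, all on the plus strand of TAIR10.1.
SAG13: ggatccatcTATggagcaaccAAAggagcc
AT2G29290: ggatccatcTATggagcaacaAAAggagcc
AT2G29360: gcatccataTATggagtatctAAAggagct
AT2G29340: ggatccattTATggtctaacaAAAggagct
AT2G29310: ggatccattTATagtctaactAAAggagct
AT2G29320: ggatccattTATggtctaacaAAAggagct
TRI: gcatccattTATggtctaacgAAAggagct
AT2G29260: atgtcggtcCAAtcttcaaccAAAggagca
The tyrosine and lysine codons were both present in 9 of the 10 members, and AT2G29260 kept the lysine codon only. Of these stretches, that of AT2G29290 differed from *SAG13* at 1 base, that of AT2G29360 at 6, those of the *TRI* group at 6 or 7, and that of AT2G29260 at 12. AT2G29340 and AT2G29320 had the same 30 bases. Over the whole transcripts, AT2G29290 shared 18.8% of its 100-base stretches with the overlapping pseudogene AT2G29280, and AT2G29260 shared 8.08% with AT2G29263 and the pseudogene AT2G29270, so the values of these members can hold reads of another gene. The other 8 members shared no stretch of 100 bases with another gene.

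The labels were checked on *KAKU4* (AT4G31430), which had 2.69, 3.61 and 2.51 FPKM in the WT and 0.402, 0.433 and 0.313 FPKM in *kaku4-2*. Its log2 fold change on log2(FPKM + 0.1) was −2.64 (limma, adjusted p = 0.00933, Benjamini-Hochberg). *kaku4-2* replicate 3 stood apart from the other libraries. Its correlation with them was 0.895 to 0.936 against 0.963 to 0.981 among the other 5, and its FPKM summed to 829805 against 1245643 to 1767459. At the transcript lengths of most members, 1000 to 1900 bases, the median of 4743 genes with at least 10 FPKM lay 0.52 below the 6-library mean on the log2 scale in this library and 0.02 to 0.24 above it in the others. The log2 fold changes of the tested members are therefore given with and without it. Markers of leaf summed to 19376 to 28730 FPKM in the WT and 15258 to 20227 FPKM in *kaku4-2*, over 5 of 6 genes. The sums for 3 of 6 root markers were 38.5 to 52.6 and 44.4 to 71.2 FPKM, for 6 flower markers 2.56 to 4.13 and 1.68 to 2.35 FPKM, and for 3 of 4 seed markers 0.0730 to 0.388 and 0.154 to 0.653 FPKM. The root hair gene *COBL9* and the seed storage genes *CRA1* and *CRU3* were at 0 in some libraries. The part of these markers in the results was not tested, and in whole leaves fewer cells of a type and less RNA per cell cannot be told apart.

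*SAG13* had 147, 146 and 160 FPKM in WT replicates 1, 2 and 3, and 275, 253 and 206 FPKM in the *kaku4-2* replicates. All 3 mutant libraries lay above all 3 WT libraries, with *kaku4-2* replicate 3 the lowest of the mutant. The log2 fold change was 0.68 (SE 0.27), with an unadjusted P of 0.0246 and an adjusted p of 0.294 (limma, Benjamini-Hochberg over 20638 genes tested). The log2 ratio of the median FPKM was 0.78, and with that P-value *SAG13* passed the study's cutoff, which is set at 0.6 in either direction together with an unadjusted P no higher than 0.05. Without *kaku4-2* replicate 3 the log2 fold change was 0.80 and the adjusted p 0.0661 by limma with Benjamini-Hochberg adjustment. *SAG13* missed the study's cutoff without WT replicate 2 (unadjusted P of 0.0831), WT replicate 3 (0.0544), *kaku4-2* replicate 1 (0.0921) or *kaku4-2* replicate 2 (0.0826), with log2 fold changes of 0.59 to 0.73. With the replicate number added to the limma fit it also missed the cutoff (unadjusted P of 0.104). It passed an adjusted p of 0.05 by limma with Benjamini-Hochberg adjustment after quantile normalization (1.14, adjusted p = 0.0289) and with the length trend removed (0.89, adjusted p = 0.0135).

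The place of *SAG13* among all genes of a library does not depend on a single factor that scales the whole library. A shift that differs by transcript length can still change it. It ranked 1319, 1487 and 1523 from the top of 23069 genes in the WT replicates. In *kaku4-2* replicates 1, 2 and 3 it ranked 753, 810 and 640. In *kaku4-2* replicate 3, where its FPKM was the lowest of the mutant, its rank was thus the highest of the 6 libraries.

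Among the members closest to *SAG13* by protein, only AT2G29290 and AT2G29360 were abundant. AT2G29290 had 37.5, 30.6 and 35.7 FPKM in the WT and 44.7, 39.4 and 32.4 FPKM in *kaku4-2*. The genotypes overlapped because *kaku4-2* replicate 3 lay within the WT range. Its log2 fold change was 0.16 (SE 0.26, limma adjusted p = 0.754, Benjamini-Hochberg), and 0.28 without that library, when its mutant values all lay above the WT. AT2G29360, which directly follows *SAG13*, had 84.5, 68.1 and 79.6 FPKM in the WT and 80.8, 76.5 and 57.9 FPKM in *kaku4-2*. Its libraries overlapped between the genotypes. The log2 fold change was −0.12 (SE 0.27, limma adjusted p = 0.820, Benjamini-Hochberg), and it turned to 0.028 without *kaku4-2* replicate 3 and to 0.27 after quantile normalization.

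The other members close to *SAG13* by protein were near the lower end of the table. AT2G29150 was listed at 0 in all 3 WT libraries and had 0.143, 0.220 and 0.630 FPKM in *kaku4-2* replicates 1, 2 and 3. Read against the steps between low values of each library, these correspond to an estimated 1.99, 2.98 and 10.95 fragments. It lies at the far end of the group from *SAG13* and is the only member on the minus strand. Its mean of 0.166 FPKM passed the filter of 0.1 FPKM only through the mutant, which fixed the direction of any difference, so its place past the study's cutoff is given as a description and not as a test. No fold is given, since the WT was at 0. The fitted log2 difference was 1.94 (SE 0.66) with 0.1 FPKM added, and 4.82 or 0.40 with 0.01 or 1 FPKM added. Without *kaku4-2* replicate 3 it was 1.48 with 0.1 FPKM added. AT2G29370, which follows AT2G29360, had 0.260, 0 and 0 FPKM in the WT and 0.0986, 0 and 0.117 FPKM in *kaku4-2*. Its mean over the 6 libraries was below 0.1 FPKM, so it was not tested.

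The abundant genes of the *TRI* group had log2 fold changes below 0, and none passed a rule. AT2G29340 had 352, 458 and 540 FPKM in the WT and 333, 348 and 144 FPKM in *kaku4-2*. Every *kaku4-2* library lay below every WT library, though replicate 2 of the mutant was close to replicate 1 of the WT. The log2 fold change was −0.79 (SE 0.37), with an unadjusted P of 0.0494 and an adjusted p of 0.331 (limma, Benjamini-Hochberg). The log2 ratio of the medians was −0.46, short of the study's cutoff, which it passed downward without *kaku4-2* replicate 1 (−0.98) or replicate 2 (−1.01). Without *kaku4-2* replicate 3 the log2 fold change was −0.38 and the adjusted p 0.460 by limma with Benjamini-Hochberg adjustment. With the libraries scaled by the median ratio, after quantile normalization, or with the length trend removed, the genotypes overlapped.

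AT2G29310 had 69.5, 93.5 and 113 FPKM in the WT and 88.7, 78.4 and 37.4 FPKM in *kaku4-2*. Its log2 fold change was −0.50 (SE 0.34, limma adjusted p = 0.443, Benjamini-Hochberg), and −0.11 without *kaku4-2* replicate 3. Only that library lay below the WT range. AT2G29320 had 58.8, 57.3 and 66.2 FPKM in the WT and 60.7, 57.1 and 31.3 FPKM in *kaku4-2*. Its log2 fold change was −0.35 (SE 0.30, limma adjusted p = 0.530, Benjamini-Hochberg), and −0.04 without *kaku4-2* replicate 3. *kaku4-2* replicates 1 and 2 thus stood near the WT values for this gene. *TRI* itself was listed at 0 in all 3 WT libraries and in *kaku4-2* replicate 3, had 0.176 and 0.120 FPKM in *kaku4-2* replicates 1 and 2, and was too low to be tested.

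AT2G29260, the most distant member and the one without the tyrosine codon, had 1.26, 0.718 and 2.34 FPKM in the WT and 0.875, 1.55 and 1.09 FPKM in *kaku4-2*. The values of the mutant all lay within the range of the WT. Its log2 fold change was −0.17 (SE 0.48, limma adjusted p = 0.858, Benjamini-Hochberg), and −0.14 without *kaku4-2* replicate 3. Its sign depended on which other libraries were used.

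**Figure D1:**
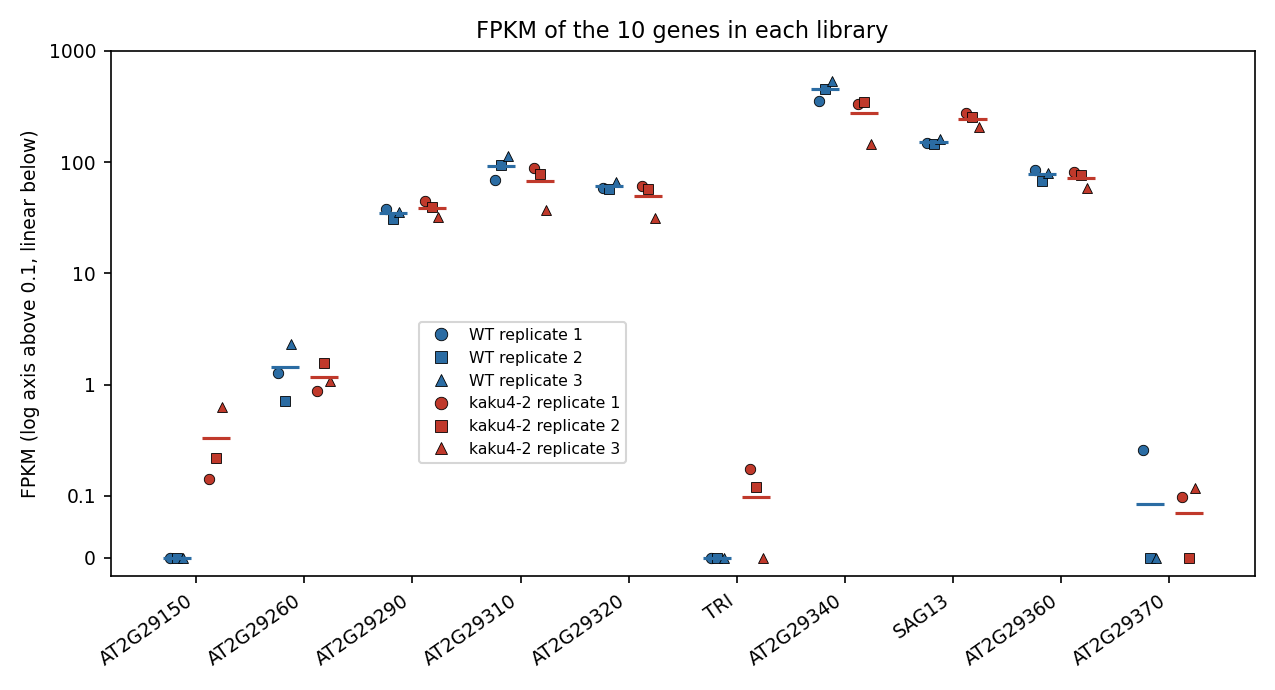
FPKM of each of the 10 genes in chromosomal order, on a log axis above 0.1 FPKM and a linear axis below. Points are single libraries (blue WT, red *kaku4-2*) and bars the means of 3. *SAG13* is the only abundant gene with all red points above the blue points, from 206 to 275 against 146 to 160 FPKM, and AT2G29290 joins it without *kaku4-2* replicate 3 or after quantile normalization.

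Of the 10 members, 8 passed the filter of a mean of 0.1 FPKM over the 6 libraries and were tested. AT2G29150 passed the filter only through its mutant values, so that it could differ in no other direction, and its call is not read against the other genes. By the study's cutoff *SAG13* was upregulated, where 5.02% of all genes tested were, and AT2G29150 was the other member called up. With the filter at a mean of 1 FPKM, which AT2G29150 does not pass, *SAG13* was the 1 member called up. Over all genes, 819 of 16496 were then called up. None of the 8 was downregulated, where 6.64% of all genes were. At an adjusted p of 0.05 by limma with Benjamini-Hochberg adjustment, no member was called in either direction, where 0.242% of all genes were called up and 0.237% down. The unadjusted P was at most 0.05 for *SAG13*, AT2G29340 and, by way of the filter, AT2G29150. In *SAG13* all mutant libraries lay above all WT libraries, a pattern found in 7.92% of the genes tested. AT2G29150 had it too, by way of the filter. AT2G29340 was the only member with all mutant libraries below the WT, a pattern found in 15.0% of the genes. Over the whole table the cutoff called 1037 genes up and 1370 down, so that 43.1% of the calls were up. With the length trend of each library removed 1394 were up and 1137 down, or 55.1% up. All these calls rest on the P-values of limma. The paper, at the same thresholds but with its own P-values, reports more genes up than down.

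Within a library, FPKM of different genes can be set side by side without a scaling between libraries. A shift that differs by transcript length can still alter their ratios and shares. These ratios and shares were chosen after the values were seen and are given as a description, without a test. AT2G29340 had the highest FPKM of the members in every library but *kaku4-2* replicate 3, in which *SAG13* did. *SAG13* over AT2G29340 was 0.418, 0.319 and 0.297 in the WT replicates and 0.824, 0.726 and 1.42 in the *kaku4-2* replicates. The ratio was thus higher in every mutant library, and the means of the genotypes were 0.345 ± 0.0647 and 0.992 ± 0.378 (SD, n = 3 each). *SAG13* made up 19.6%, 17.1% and 16.1% of the summed FPKM of the members in the WT and 31.1%, 29.6% and 40.3% in *kaku4-2*. AT2G29340 made up 46.9%, 53.6% and 54.2% in the WT and 37.7%, 40.8% and 28.2% in *kaku4-2*. The summed FPKM itself overlapped between the genotypes, at 751, 854 and 997 in the WT and 884, 854 and 511 in *kaku4-2*. The higher share of *SAG13* therefore stood within a sum that did not separate the genotypes.

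The ratio of *SAG13* to each of the other abundant members also separated the genotypes. Over AT2G29360, its neighbour on the downstream side, the ratio was 1.74, 2.14 and 2.01 in the WT and 3.40, 3.30 and 3.55 in *kaku4-2*. Over AT2G29290, the member with the most similar protein, it was 3.92, 4.77 and 4.49 in the WT and 6.15, 6.42 and 6.35 in *kaku4-2*. In these ratios *kaku4-2* replicate 3 lay close to the other mutant libraries. Over AT2G29310 and AT2G29320 of the *TRI* group the means were 1.70 and 2.49 in the WT and 3.94 and 5.17 in *kaku4-2*, with replicate 3 the highest.

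**Figure D2:**
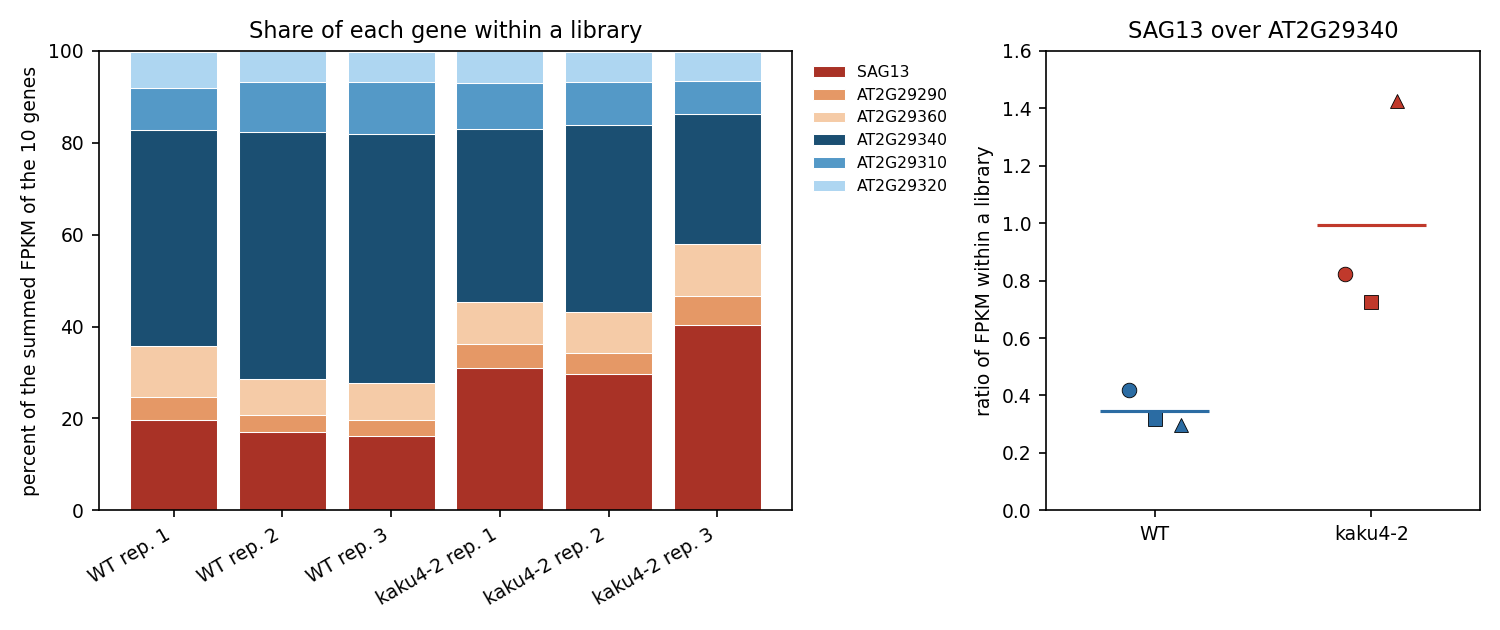
On the left, the percent of the summed FPKM of the 10 genes held by each of the 6 abundant genes in every library. On the right, the ratio of *SAG13* to AT2G29340 in each library (points) with the mean of 3 (line). The share of *SAG13* was 16.1% to 19.6% in the WT and 29.6% to 40.3% in *kaku4-2*.

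In the WT the levels of the members, in FPKM and thus per length, ran from 449.8 on average for AT2G29340 down to genes at 0. The order was AT2G29340, *SAG13*, AT2G29310, AT2G29360, AT2G29320, AT2G29290, AT2G29260 and AT2G29370, with AT2G29150 and *TRI* at 0. The WT libraries of neighbours in this order did not overlap, except for AT2G29310 with AT2G29360 and for the lowest 3 genes among each other. The genes of highest and lowest level were thus mixed along the chromosome and in both protein groups.

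Across the 6 libraries the abundant genes of the *TRI* group varied together, which is given as a description without a p, since the libraries share their scaling. On log2(FPKM + 0.1), Pearson's r was 0.97 between AT2G29310 and AT2G29340, 0.95 between AT2G29310 and AT2G29320, and 0.94 between AT2G29320 and AT2G29340 (n = 6). This was not particular to the *TRI* group. AT2G29360, of the other protein group, had r of 0.88 with AT2G29320, 0.70 with AT2G29310 and 0.70 with AT2G29340. AT2G29290 had lower values, 0.44, 0.27 and 0.12 in the same order. *SAG13* had an r of 0.68 with AT2G29290, −0.01 with AT2G29360, −0.15 with AT2G29320, −0.17 with AT2G29310 and −0.37 with AT2G29340. *SAG13* therefore did not follow its nearest neighbours on the chromosome, although AT2G29360 is also among its closest relatives by protein.

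The genes most like *SAG13* over the 6 libraries lay mostly elsewhere in the genome. Among 8374 genes with a mean of at least 10 FPKM, the 5 with the highest Pearson's r on log2(FPKM + 0.1) had r of 0.99 to 1.00. The first was *GSTU3*, the gene of a tau-class glutathione transferase, which lies on the same chromosome 25866 bases beyond the end of *SAG13*. It had 7.58, 7.93 and 11.6 FPKM in the WT and 64.2, 59.9 and 26.6 FPKM in *kaku4-2*. The others were *ERF5*, the gene of an ethylene response factor, *DMP1*, which encodes a membrane protein of senescing tissue, *EBF2*, the gene of an F-box protein of ethylene signalling, and *SAG12*, the gene of a senescence-specific cysteine protease. All 5 lay past the study's cutoff upward, which follows closely from their choice by likeness to *SAG13* over the same libraries, and *GSTU3*, *ERF5*, *DMP1* and *SAG12* reached a mean of 10 FPKM only through the mutant. Of the other members, AT2G29290 came nearest, at place 328 in this order, and AT2G29340 stood at place 5572.

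The genes between and beside the members were read in the same fit. Of 17 annotated genes that lie among the members without being members, 8 were tested, and none passed the study's cutoff. A pair of them belong to the same family. AT2G29170 has a short annotated protein of 107 residues, 78.3% identical to that of *SAG13* over 106 aligned residues. It was abundant, with 66.6, 102 and 138 FPKM in the WT and 118, 133 and 70.6 FPKM in *kaku4-2*. Its log2 fold change was 0.08 (SE 0.34), and that of AT2G29300, between AT2G29290 and AT2G29310, was −0.11 (SE 0.30). AT2G29180, which lies between members but is not one of the family, had a log2 fold change of −0.90 (SE 0.37, limma adjusted p = 0.300, Benjamini-Hochberg).

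Of the 10 genes before the members, 7 were tested. *GLR2.8*, the gene of a glutamate receptor-like channel, passed the cutoff upward, with a log2 fold change of 1.33 (SE 0.59, limma adjusted p = 0.319, Benjamini-Hochberg). Its means were 0.103 FPKM in the WT and 0.460 FPKM in *kaku4-2*, near the 0.1 FPKM added before the fit. *RTFL2*, the gene of a small peptide that affects cell proliferation, passed downward with −1.27 (SE 0.44, limma adjusted p = 0.250, Benjamini-Hochberg). Of the 10 genes after them, *GSTU6* and *GSTU5*, the genes of tau-class glutathione transferases, passed downward with −1.06 and −0.94. The array of glutathione transferases that begins there and contains *GSTU3* differed among its genes as well. Of its 7 genes, *GSTU3* was upregulated by the cutoff, with a log2 fold change of 2.39 (SE 0.35, limma adjusted p = 0.00790, Benjamini-Hochberg), *GSTU5* and *GSTU6* were downregulated, and 4 passed neither way. *GSTU7* was among these 4, with a log2 fold change of −0.85 (SE 0.33). Without *kaku4-2* replicate 3, 2 genes of this array were upregulated and 2 downregulated by the cutoff. Of all 20638 genes tested, 933 were then up and 1347 down, against 5.02% up and 6.64% down with all libraries.

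**Figure D3:**
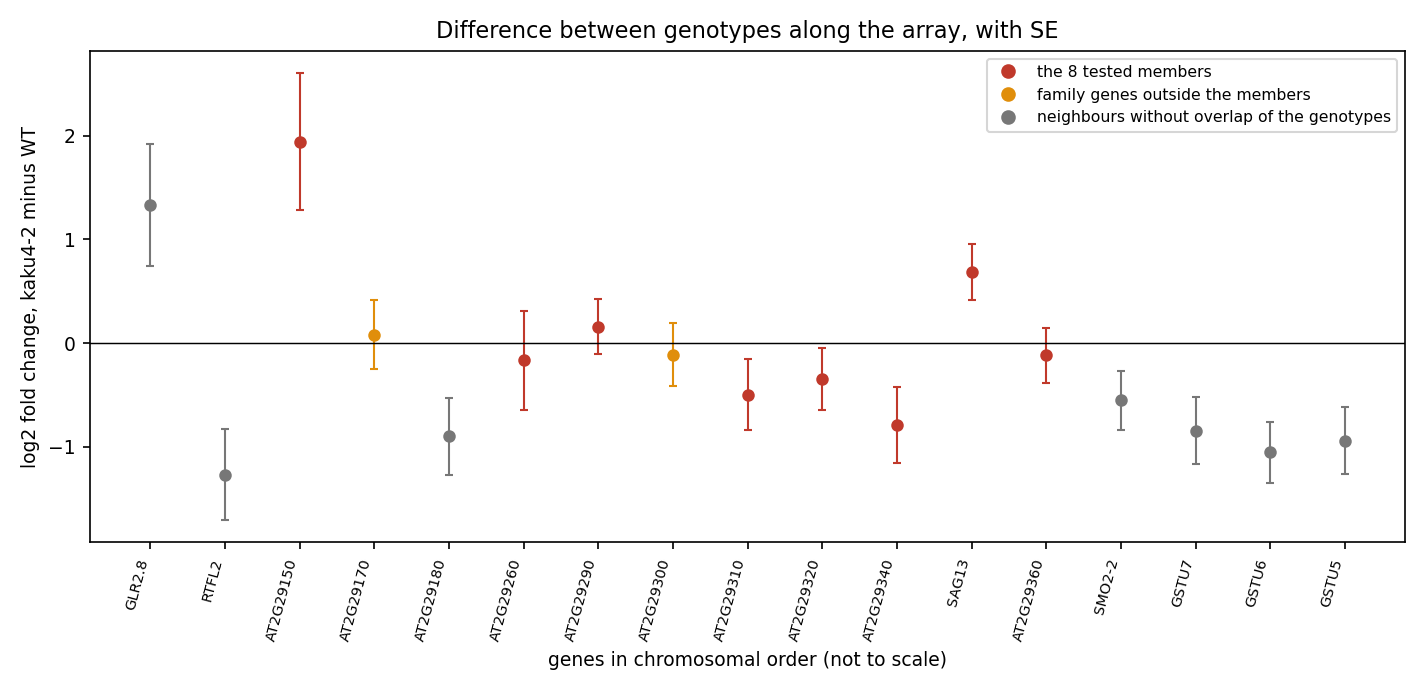
Log2 fold change (*kaku4-2* minus WT, on log2(FPKM + 0.1), error bars SE of limma) of tested genes in chromosomal order. The 8 tested members are in red, the family genes outside the members in orange, and neighbours whose genotypes did not overlap in grey. *SAG13* stands at 0.68 between AT2G29340 at −0.79 and AT2G29360 at −0.12.

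Of 4 tropinone-reductase-like genes outside this stretch of chromosome 2, 2 passed the study's cutoff downward and none upward, and their median log2 fold change was −0.81. Of all genes tested, 6.64% passed downward and 5.02% upward. AT1G07450 had 2.51, 4.11 and 5.20 FPKM in the WT and 2.04, 2.15 and 1.18 FPKM in *kaku4-2*, with a log2 fold change of −1.08 (SE 0.40). AT2G30670 had 0.317, 0.713 and 1.47 FPKM in the WT and 0, 0.228 and 0.0593 FPKM in *kaku4-2*, and passed the filter of 0.1 FPKM only through the WT. With the filter at 1 FPKM 3 genes were tested, of which 1 passed downward, and the median was −0.53. Over all genes, 1240 of 16496 then passed downward. The mutant libraries lay below the WT libraries in both AT1G07450 and AT2G30670. AT1G07440 and AT5G06060 passed neither way, at −0.53 and −0.38. Without *kaku4-2* replicate 3 the median of the 4 was −0.60, and 2 passed downward, while without WT replicate 2 or WT replicate 3 only 1 did. Of all 20638 genes, 1347, 786 and 625 passed downward in these settings, in turn.

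Short-chain dehydrogenases with known roles elsewhere in the plant did not share a direction. Of 11 tested, 2 were upregulated by the study's cutoff and none downregulated, and the median log2 fold change was 0.00. Of all genes tested, 5.02% were upregulated and 6.64% downregulated. *NYC1*, the gene of chlorophyll b reductase, which starts chlorophyll breakdown, had 13.9, 7.56 and 6.87 FPKM in the WT and 28.2, 20.5 and 31.8 FPKM in *kaku4-2*, with a log2 fold change of 1.55 (SE 0.33, limma adjusted p = 0.0613, Benjamini-Hochberg). *PORB*, the gene of a protochlorophyllide reductase of chlorophyll synthesis, had 18.3, 22.0 and 17.7 FPKM in the WT and 30.2, 32.8 and 71.8 FPKM in *kaku4-2*. *ABA2*, of abscisic acid synthesis, had a log2 fold change of −0.50 (SE 0.31) and did not pass. Without *kaku4-2* replicate 2, 4 of the 11 were upregulated and 1 downregulated by the cutoff, and without *kaku4-2* replicate 1, 3 and 1. Of all 20638 genes, 1102 were up and 2465 down without replicate 2, and 1180 up and 2130 down without replicate 1.

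*SAG13* was also set beside 19 other genes of leaf senescence, a list chosen with earlier results of these data known. By the study's cutoff 4 of them were upregulated and 1 downregulated, and at an adjusted p of 0.05 by limma with Benjamini-Hochberg adjustment 3 were up and none down. Of all genes tested, 5.02% were up and 6.64% down by the cutoff, and 0.242% up and 0.237% down at that adjusted p. *WRKY53*, the gene of a transcription factor of early senescence, had a log2 fold change of 1.87 (adjusted p = 0.00790), *SAG12* of 1.80 (adjusted p = 0.0339) and *ORE1*, the gene of a NAC factor that promotes leaf ageing, of 1.47 (adjusted p = 0.0325, all by limma). *NAP*, the gene of another NAC factor, was upregulated by the cutoff with 0.97. *SAG113*, the gene of a protein phosphatase that acts in senescing leaves, fell by 0.96 on the log2 scale and passed the cutoff downward. The value of *SAG13*, 0.68, thus lay below those of the 4 upregulated genes and above the median of the list, 0.43. The list held the chlorophyll breakdown genes *SGR1*, *PAO* and *PPH*, which passed neither way, at 0.28, −0.16 and 0.09. Without *kaku4-2* replicate 3, 8 of the 19 were upregulated and 1 downregulated by the cutoff, where 933 of all 20638 genes were up and 1347 down. At an adjusted p of 0.05 by limma, 0 of the 19 were called without WT replicate 1, 2 or 3 or *kaku4-2* replicate 1, and 1 without *kaku4-2* replicate 2. Few of all 20638 genes tested were called in these settings. Without WT replicate 1, 2 or 3 or *kaku4-2* replicate 1, in turn, 3, 8, 7 and 9 were up and 1, 8, 6 and 23 down. Without *kaku4-2* replicate 2, 37 were up and 53 down.

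Promoter windows, from 250 bases before to 50 bases after the start of each gene in TAIR10.1, were read for motifs on both strands as a further feature that the members may share. TTGAC, the core of the W-box that WRKY factors bind, was found in 6 of 10 members, or 60.0%, against 50.5% of 27443 windows of protein-coding genes. *SAG13* had 1 match, 83 bases before its start on the reverse strand, shown because *SAG13* is the member that passed the cutoff at a high level. The motif is in capitals and lies at chr2:12600819-12600848 with its flanks, read from the plus strand.
SAG13 promoter: tatacaagacttGTCAAaaggaaaagtagt
AT2G29340 had 4 matches of TTGAC and *TRI* had 4, while AT2G29260, AT2G29290, AT2G29360 and AT2G29370 had none in the window. Every gene of the *TRI* group held a match, as did *SAG13* and AT2G29150 of the other group. TGACG, the core bound by TGA factors, was found in 1 of 10 members, AT2G29260, against 23.1% of all windows. CACGTG, the G-box, was found in *TRI* only, against 7.68% of all windows, and CACGCG in no member, against 3.16%. TTGAC and TGACG can overlap by their shared letters. Members with and without TTGAC thus occurred among the abundant genes and among those near 0, and such a match is not a binding site.

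**Figure D4:**
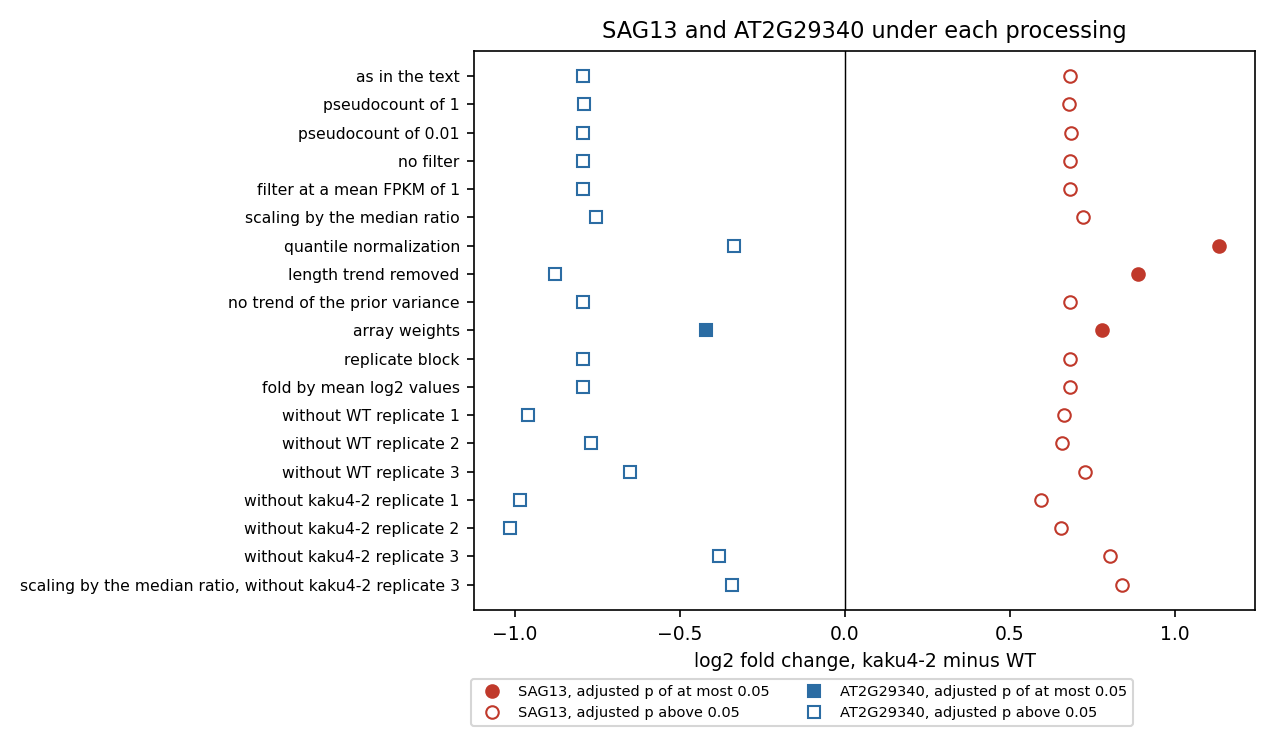
Log2 fold changes (*kaku4-2* minus WT) of *SAG13* (red circles) and AT2G29340 (blue squares) under each processing of the same 6 libraries or 5 of them. Filled symbols have an adjusted p of at most 0.05 by limma. *SAG13* stayed between 0.59 and 1.14 and AT2G29340 between −1.01 and −0.33.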

How the data were processed

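Reads were mapped by the authors with TopHat2 (2.0.9) on TAIR10, and the deposited FPKM values of 6 RNA-seq libraries were computed by Cufflinks. The annotation and the use of strand are not given in the sources used here. Depth is not given with the FPKM values, though the paper lists nearly equal numbers of mapped reads for the 6 libraries. The number of fragments was estimated from the spacing of low values, of which 32.9% to 41.3% lay within 0.03 of a whole fragment. The depths fitted from this spacing ran from 19300000 fragments in WT replicate 3 to 32000000 in *kaku4-2* replicate 3. They were thus less equal than the mapped reads, so the fragment numbers are rough. These estimates were used in no test. The ChIP-seq samples were not analysed here.

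Genes with a mean of at least 0.1 FPKM (20638) were log2-transformed after adding 0.1 and fitted by genotype alone with limma 3.58.1 (R 4.3.3), using a trended prior variance. Tests were two-sided, and P-values were adjusted by Benjamini-Hochberg. The study's cutoff was applied to the ratio of median FPKM with the unadjusted P-values of limma, not with those of the paper. A WT median of 0 counted as past the fold cutoff. On simulated data for this comparison (20412 genes), 182 of 200 genes changed by 3 on the log2 scale were recovered, with 8 false calls. The simulated noise was independent, with no outlying library and no length trend. The planted change was larger than those of *SAG13* and AT2G29340, so the simulation does not bear on the calls of these genes. No exact permutation test is reported, since 0.1 is the smallest p that 3 libraries a genotype allow. Names, positions and sequences came from RefSeq (TAIR10.1, 22881 loci matched), and protein identities from pairwise global alignment with Biopython 1.88. The members and gene lists were chosen with earlier results of these data known. The genes named are the members, *KAKU4*, the 5 genes most correlated with *SAG13*, listed or neighbouring genes that passed a rule, and up to 4 more of a list. Settings of pseudocount, filter, scaling, prior, weights, replicate block, fold definition and each library left out were varied.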

Additional observations from a re-analysis of the deposited data

How the results depend on the processing

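*SAG13* kept its direction under all 18 alternatives, with log2 fold changes of 0.59 to 0.80 when a library was left out. By limma with Benjamini-Hochberg adjustment it passed an adjusted p of 0.05 after quantile normalization (1.14), with the length trend removed (0.89) and with array weights (0.78). It missed the study's cutoff with the replicate block and without WT replicate 2, WT replicate 3, *kaku4-2* replicate 1 or *kaku4-2* replicate 2. *KAKU4* ranged from −2.74 to −2.49 with a library left out, and its adjusted p rose to 0.0555 to 0.166 when any single WT library was left out, or *kaku4-2* replicate 1. AT2G29260 reversed to 0.46 with array weights and ranged from −0.55 to 0.23 with a library left out. AT2G29360 reversed to 0.27 after quantile normalization, 0.36 with the length trend removed, 0.087 with array weights and 0.065 with median-ratio scaling and no *kaku4-2* replicate 3, an alternative chosen after seeing the data, and ranged from −0.21 to 0.028 with a library left out.

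The members upregulated by the study's cutoff fell to 1 with the filter at 1 FPKM, which removes AT2G29150, and to 1 with the replicate block, and were 1 to 2 with a library left out. Those downregulated were 1 with the fold by mean log2 values and 0 to 1 with a library left out, AT2G29340 in each case. Of 20638 genes tested, 1973 were down with the fold by mean log2 values, 2130 without *kaku4-2* replicate 1 and 2465 without *kaku4-2* replicate 2. At an adjusted p of 0.05, 1 member was up after quantile normalization, where 63 of 20638 genes were. With the length trend removed 1 member was up, where 178 genes were, and array weights gave 2 up and 1 down. The estimation of these weights stopped before it converged, and over the whole table they called 2173 genes up and 2881 down at an adjusted p of 0.05, and 2126 up by the cutoff. Other counts of genes up and down at an adjusted p of 0.05 were 33 and 29 with no filter, 178 and 91 with the length trend removed, 19 and 17 with no trend of the prior variance, 99 up with scaling and without *kaku4-2* replicate 3, and 3 to 105 up and 1 to 93 down with a library left out. By the cutoff, 513 to 1504 were up and 625 to 2465 down with a library left out, the lowest without WT replicate 3. The deviations of same-numbered libraries from their genotype means correlated at −0.16, −0.03 and −0.41, which gave no sign that the replicate numbers pair the samples. The shift of *kaku4-2* replicate 3 enters these deviations, so the check cannot exclude pairing. The replicate block called 706 genes up and 1017 down by the cutoff. The cause of these changes was not tested. FPKM without counts leave the counting error of AT2G29150, *TRI* and AT2G29370 unknown.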
